A study of Mus musculus with 6 samples.

Results

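The surface ectoenzymes described here are 10 genes, Alpl, Ace, Ece1, Anpep, Enpep, Dpp4, Mme, Nt5e, Entpd1 and Ggt5, of the 23329 gene symbols counted. They encode membrane peptidases, phosphatases and nucleotidases that face the blood or the extracellular space. They were chosen by name, and because Alpl and Ace had been seen to move in opposite directions in this same comparison. The differences between genotypes given for these 10 genes are therefore descriptions, and no p-value is given for any of them. RNA came from endothelial cells pulled from the brains of C57BL/6 mice aged 8 weeks with magnetic beads (MACS) and lysed without culture. There were 3 libraries labelled GLUT1EC-/-, from mice lacking Slc2a1 (GLUT1, the glucose carrier of the blood-brain barrier) in endothelial cells, and 3 from wild-type (WT) littermates. The labels name neither the Cre driver nor the deleted exons. No allele or treatment that the groups share is given.

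Ectoenzymes cut or dephosphorylate peptides, nucleotides and vitamins outside the cell, and so set which signals reach receptors on the vessel wall. Brain capillaries are rich in such enzymes. Alkaline phosphatase staining is a classical way to see brain capillaries under the microscope, and aminopeptidases on the pericytes that wrap them form part of the enzymatic barrier between blood and brain. The angiotensin, endothelin, kinin, incretin and adenosine systems all depend on members of this group.

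Total counts per library were 35323299 to 37868681 in GLUT1EC-/- and 31874662 to 39424384 in WT. Levels are CPM, counts scaled to a common library total, on library sizes corrected by TMM for differences in RNA composition. Slc2a1 itself was at 3735, 5414 and 3893 CPM in GLUT1EC-/- 1 to 3, against 3984, 4479 and 4172 CPM in WT 1 to 3. The count of the targeted gene thus did not separate the groups, and every direction below is between libraries as labelled. GLUT1EC-/- 2 stood apart, with a TMM factor of 0.884 against 1.01 to 1.05 for the other 5 libraries. Of 12 endothelial markers, 0 passed the test described below (1 higher and 1 lower at an unadjusted p under 0.05, 0 by DESeq2), and their summed level was 14900 to 17780 CPM in GLUT1EC-/- and 15610 to 16710 CPM in WT. None of these markers was at 0, so the labelled cell type was present in both groups.

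Alpl, Ece1, Ace and Dpp4 are shown by the 250 bases before their transcription start, in the direction of transcription, because Alpl and Ace moved apart, Dpp4 had the next largest fall after Alpl, and Ece1 is the coding gene next to Alpl on its upstream side. The windows are those of RefSeq on GRCm38.p6, for the outermost start of each gene. Capitals mark any of 6 motifs searched on both strands: the GC box GGGCGG, the CCAAT box CCAAT, the TATA box TATAAA, the E-box CACGTG, the hypoxia response core ACGTG, which lies inside the E-box, and the ETS core CGGAAG.
Alpl, chr4:137796385-137796634, minus strand: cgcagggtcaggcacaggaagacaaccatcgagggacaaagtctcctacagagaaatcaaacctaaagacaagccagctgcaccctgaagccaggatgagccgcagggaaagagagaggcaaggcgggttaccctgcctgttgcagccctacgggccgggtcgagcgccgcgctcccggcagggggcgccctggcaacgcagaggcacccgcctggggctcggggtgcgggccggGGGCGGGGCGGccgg
Ace, chr11:105967698-105967947, plus strand: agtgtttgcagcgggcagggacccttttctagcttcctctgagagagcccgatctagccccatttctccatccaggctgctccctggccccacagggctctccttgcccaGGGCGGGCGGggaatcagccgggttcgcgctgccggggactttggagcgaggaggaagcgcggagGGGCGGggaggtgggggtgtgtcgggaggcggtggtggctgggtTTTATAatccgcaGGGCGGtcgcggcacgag
Dpp4, chr2:62412232-62412481, minus strand: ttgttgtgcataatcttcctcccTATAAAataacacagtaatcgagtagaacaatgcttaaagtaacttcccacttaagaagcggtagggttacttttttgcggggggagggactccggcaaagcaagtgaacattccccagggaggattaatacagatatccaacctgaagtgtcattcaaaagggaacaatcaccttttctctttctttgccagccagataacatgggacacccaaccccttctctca
Ece1, chr4:137861987-137862236, plus strand: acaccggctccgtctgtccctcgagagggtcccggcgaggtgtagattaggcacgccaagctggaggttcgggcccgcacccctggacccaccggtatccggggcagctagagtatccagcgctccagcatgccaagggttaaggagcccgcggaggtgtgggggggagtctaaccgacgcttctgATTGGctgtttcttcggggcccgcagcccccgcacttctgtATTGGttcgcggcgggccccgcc

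The 4 windows differed in composition. The Alpl, Ace and Ece1 windows held 20, 19 and 22 CG dinucleotides, against a median of 6 over 32851 windows of the same length, and that of Dpp4 held 4. GC boxes occurred 2 times in the Alpl window and 4 times in the Ace window, and 32.7% of all windows held at least 1. The TATA box sequence stood near the transcription start in the Ace window, read on the opposite strand as TTTATA. In the Dpp4 window it stood at the far end from the start, and 12.4% of all windows held it at any position. The Ece1 window held 2 CCAAT boxes, read as ATTGG, which 33.8% of windows hold. The E-box, the hypoxia response core and the ETS core were in none of the 4 windows, and were in 6.02%, 16.6% and 13.6% of all windows. Windows of other annotated starts held other motifs. Another Ece1 window (chr4:137913308-137913557) held 1 E-box, with the hypoxia response core inside it, and 1 ETS core. The remaining Ece1 windows held 2 and 1 GC boxes. Another Alpl window held 1 TATA box and 0 GC boxes, and another Ace window 1 CCAAT box and 0 GC boxes. The counts cover whole genes, so they do not tell the outermost start from the other annotated ones of Alpl, Ace and Ece1.

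Alpl was the member with the largest difference. It encodes tissue-nonspecific alkaline phosphatase, a GPI-anchored enzyme that dephosphorylates pyridoxal phosphate (vitamin B6), pyrophosphate and nucleotides. The gene has 12 exons in its longest transcript and lies on the minus strand of chromosome 4 (GRCm38, 137741733 to 137796384). Its level was 125, 75.4 and 156 CPM in GLUT1EC-/- 1 to 3, against 528, 513 and 452 CPM in WT 1 to 3. The groups did not overlap, and the highest GLUT1EC-/- library was well below the lowest WT library. The mean was 119 ± 40.8 CPM in GLUT1EC-/- and 498 ± 39.8 CPM in WT (SD, n = 3 each), with a log2 fold change of -2.07 (SE 0.25), or a level 76.1% lower. Counted from the lowest log2 fold change, Alpl ranked 72 of all 14838 tested genes, and 1 of the 2209 whose mean reached 100 CPM. Gkn3, at a mean of 91.9 CPM, lay just under that level and had a log2 fold change of -3.59. In bulk RNA, fewer cells that express a gene and less of its RNA per cell cannot be told apart. GLUT1EC-/- 2 had the lowest value, and without that library the log2 fold change was -1.83.

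Ace went the other way. It encodes angiotensin-converting enzyme, a zinc peptidase that makes angiotensin II from angiotensin I and breaks down bradykinin. The gene has 25 exons and lies on the plus strand of chromosome 11 (105967945 to 105989964). Its level was 766, 851 and 751 CPM in GLUT1EC-/- 1 to 3, against 343, 405 and 357 CPM in WT 1 to 3. All 3 GLUT1EC-/- libraries were above every WT library and close to each other. The mean was 789 ± 53.9 CPM in GLUT1EC-/- and 368 ± 32.9 CPM in WT (SD, n = 3 each), with a log2 fold change of 1.10 (SE 0.14), a fold of 2.14. The ratio of Ace to Alpl counts within a library, which no scaling between libraries touches, was 6.14, 11.3 and 4.80 in GLUT1EC-/- 1 to 3, against 0.649, 0.791 and 0.790 in WT 1 to 3. In each GLUT1EC-/- library Ace had more counts than Alpl, and in each WT library fewer. Ace shares exon positions with the annotated antisense gene Gm11651. The libraries were stranded, but the strand setting of the counting is not given in the sources used here, so a part of its count may come from that gene.

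**Figure D1:**
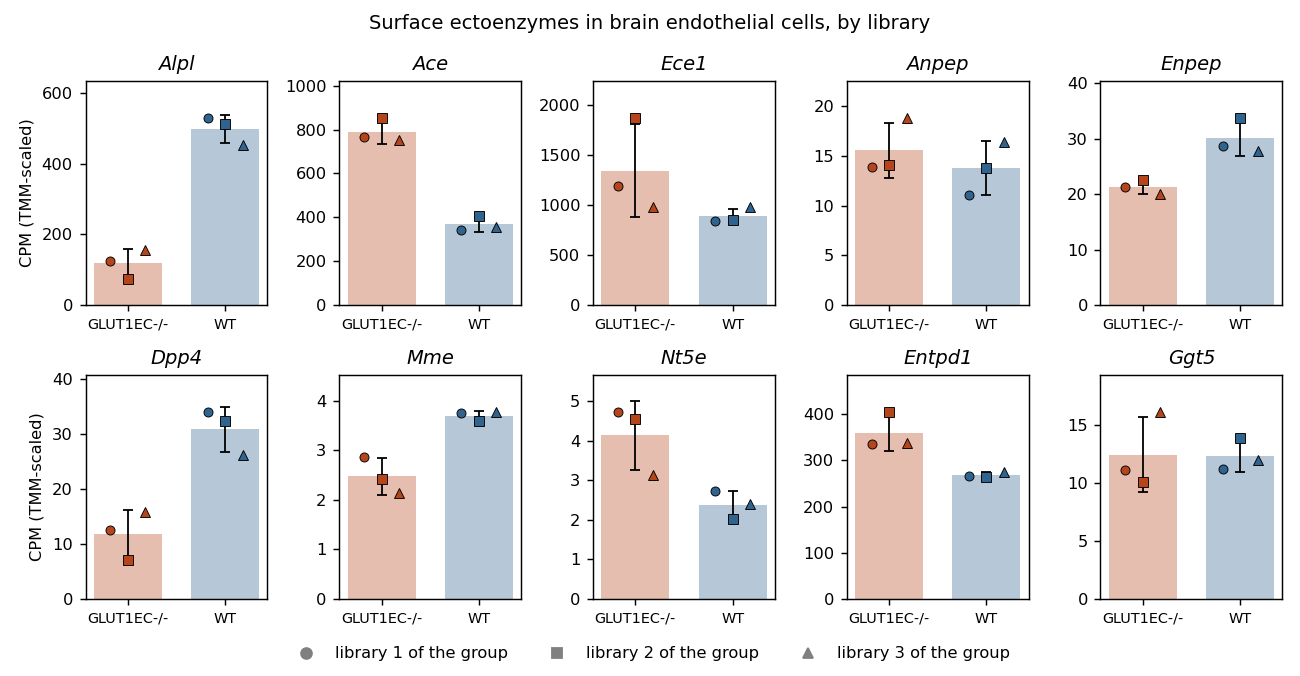
Level of each ectoenzyme in CPM on TMM-scaled library sizes, with GLUT1EC-/- left and WT right in each panel. Bars are group means, error bars are SD over 3 libraries, and symbols are single libraries. Alpl lies at 75.4 to 156 CPM in GLUT1EC-/- and 452 to 528 CPM in WT, Ace at 751 to 851 CPM in GLUT1EC-/- and 343 to 405 CPM in WT.

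The animal numbers in the labels fall into a 200s and a 500s series, whose meaning is not stated, with 1 GLUT1EC-/- and 2 WT libraries in the 200s and 2 GLUT1EC-/- and 1 WT library in the 500s. The difference in mean log2 CPM for Alpl was -2.05 within the 200s and -2.05 within the 500s. For Ace it was 1.04 within the 200s and 1.16 within the 500s. Both differences were thus present, at a similar size, within each series.

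Ece1 had the highest level per kb of all members. It encodes endothelin-converting enzyme, which releases active endothelin from its precursor. Its level was 1193, 1869 and 978 CPM in GLUT1EC-/- 1 to 3, against 839, 853 and 979 CPM in WT 1 to 3. The groups overlapped, since GLUT1EC-/- 3 lay within the WT range. The log2 fold change was 0.60 (SE 0.24), and 0.28 without GLUT1EC-/- 2. Ece1 and Alpl are divergent neighbours on chromosome 4 with 65.9 kb and no other coding gene between them. The coding genes on either side of the pair had groups that overlapped: Eif4g3, a translation initiation factor gene, was at 281 ± 50.9 CPM in GLUT1EC-/- and 259 ± 1.33 CPM in WT (edgeR adjusted p = 0.756), and Rap1gap, a GTPase-activating protein gene for Rap1, was at 0.895 ± 0.310 CPM in GLUT1EC-/- and 1.40 ± 0.320 CPM in WT (edgeR adjusted p = 0.498).

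Enpep and Anpep encode aminopeptidases A and N, the first of which turns angiotensin II into angiotensin III. In the brain both are known from pericytes. Enpep was at 21.4, 22.5 and 20.0 CPM in GLUT1EC-/- 1 to 3, against 28.6, 33.7 and 27.9 CPM in WT 1 to 3. These groups did not overlap, with a log2 fold change of -0.50 (SE 0.14). Anpep was at 13.9, 14.1 and 18.8 CPM in GLUT1EC-/- 1 to 3, against 11.1, 13.8 and 16.5 CPM in WT 1 to 3, and its groups overlapped (log2 fold change 0.18, SE 0.21). The 2 aminopeptidases thus did not move together. Of 10 pericyte markers, 0 passed the test (2 higher and 1 lower at an unadjusted p under 0.05, 0 by DESeq2), none was at 0, and their summed level was 1298 to 1648 CPM in GLUT1EC-/- and 1156 to 1362 CPM in WT.

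Dpp4 had the next largest fall by value. It encodes dipeptidyl peptidase 4 (CD26), a serine peptidase that removes dipeptides from incretins and chemokines. Its level was 12.6, 7.17 and 15.8 CPM in GLUT1EC-/- 1 to 3, against 34.0, 32.5 and 26.2 CPM in WT 1 to 3. The groups did not overlap, and the order of the GLUT1EC-/- libraries was that seen for Alpl, with GLUT1EC-/- 2 lowest and GLUT1EC-/- 3 highest. The log2 fold change was -1.38 (SE 0.27), and -1.13 without GLUT1EC-/- 2. Dpp4 shares exon positions with the annotated antisense gene Gm13561, so its count carries the same doubt as that of Ace. Lymphocytes and fibroblasts are also known to carry CD26. The summed level of 12 lymphocyte markers was 11.1 to 22.1 CPM in GLUT1EC-/- and 24.5 to 30.5 CPM in WT, with 1 of 11 tested falling (0 higher and 5 lower at an unadjusted p under 0.05, 0 higher and 4 lower by DESeq2) and all 11 lower by value. The summed level of 10 fibroblast markers was 981 to 1844 CPM in GLUT1EC-/- and 308 to 678 CPM in WT, with 1 of 10 rising (8 higher and 0 lower at an unadjusted p under 0.05, 4 higher and 0 lower by DESeq2) and all 10 higher by value. Most of the fibroblast sum was Apod, and the 9 others summed to 220, 171 and 402 CPM in GLUT1EC-/- 1 to 3, against 102, 120 and 116 CPM in WT 1 to 3. None of these markers was at 0 in every library of a group, and their part in the Dpp4 difference was not tested.

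Mme, the gene of neprilysin, which degrades enkephalins and amyloid beta, was among the lowest members per kb. Its level was 2.87, 2.42 and 2.14 CPM in GLUT1EC-/- 1 to 3, from 79 to 110 counts, against 3.74, 3.59 and 3.77 CPM in WT 1 to 3, from 121 to 153 counts. The groups did not overlap, and the log2 fold change was -0.58 (SE 0.24). Within the 200s the difference was -0.31 and within the 500s -0.62.

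The nucleotidases were higher by value. Entpd1 (CD39) takes ATP and ADP to AMP at the cell surface, and Nt5e (CD73), a GPI-anchored enzyme as Alpl is, takes AMP to adenosine. Entpd1 was at 336, 404 and 338 CPM in GLUT1EC-/- 1 to 3, against 267, 265 and 274 CPM in WT 1 to 3. The WT libraries lay within a narrow band, and all GLUT1EC-/- libraries were above it, with a log2 fold change of 0.42 (SE 0.13). Nt5e was at 4.73, 4.54 and 3.14 CPM in GLUT1EC-/- 1 to 3, from 116 to 181 counts, against 2.72, 2.02 and 2.41 CPM in WT 1 to 3, from 69 to 98 counts. These groups did not overlap either, with a log2 fold change of 0.79 (SE 0.27). The 3 members that can act on AMP or its precursors therefore did not move as a unit, with Alpl lower and Entpd1 and Nt5e higher. Microglia also carry CD39. Of 15 microglia markers 3 rose and 0 fell (9 higher and 0 lower at an unadjusted p under 0.05, 5 higher and 0 lower by DESeq2), none was at 0, and their summed level was 823 to 1848 CPM in GLUT1EC-/- and 562 to 664 CPM in WT; the part of microglia in the Entpd1 difference was not tested.

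Ggt5 encodes a gamma-glutamyltransferase that converts leukotriene C4 to D4. Its level was 11.1, 10.1 and 16.1 CPM in GLUT1EC-/- 1 to 3, against 11.2, 13.9 and 12 CPM in WT 1 to 3. The groups overlapped, and the log2 fold change was 0.01 (SE 0.21), with a 95% interval of -0.48 to 0.50. Differences within that interval, in either direction, remain possible.

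Levels between genes are compared as CPM per kb of exon, with exon lengths from GENCODE M21, since the annotation behind the counts is not given in the sources used here. In GLUT1EC-/- the order was Ece1 (254 ± 87.7), Ace (149 ± 10.2), Entpd1 (64.4 ± 6.97), Alpl (29.5 ± 10.1), Enpep (4.52 ± 0.271), Anpep (3.77 ± 0.672), Ggt5 (2.10 ± 0.542), Dpp4 (1.87 ± 0.689), Nt5e (0.481 ± 0.101) and Mme (0.215 ± 0.0320) CPM per kb (SD, n = 3). In WT it was Ece1 (168 ± 14.6), Alpl (123 ± 9.88), Ace (69.7 ± 6.22), Entpd1 (48.1 ± 0.937), Enpep (6.39 ± 0.669), Dpp4 (4.89 ± 0.657), Anpep (3.33 ± 0.651), Ggt5 (2.09 ± 0.229), Mme (0.321 ± 0.00824) and Nt5e (0.277 ± 0.0412) CPM per kb (SD, n = 3). In GLUT1EC-/- the libraries of Enpep and Anpep overlapped, as did those of Ggt5 and Dpp4. In WT those of Mme and Nt5e did. The other neighbours in each order did not. Alpl held rank 4 in GLUT1EC-/- and rank 2 in WT, and Ace rank 2 in GLUT1EC-/- and rank 3 in WT.

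**Figure D2:**
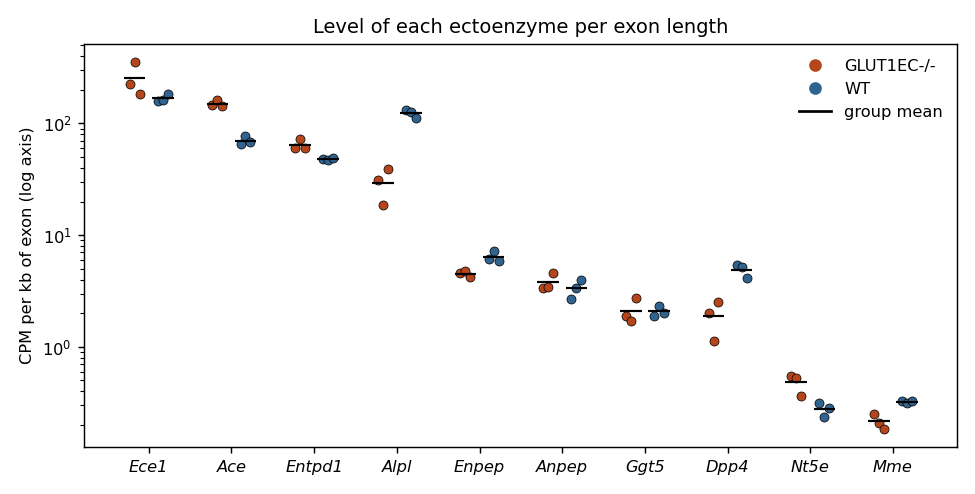
Level of each ectoenzyme as CPM per kb of exon on a log axis, with GLUT1EC-/- left of WT for each gene. Points are single libraries and lines are group means. Ece1 is highest in both groups, and Alpl averages 29.5 CPM per kb in GLUT1EC-/- and 123 CPM per kb in WT.

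The summed level of the 10 members was 2486, 3260 and 2299 CPM in GLUT1EC-/- 1 to 3, against 2067, 2135 and 2152 CPM in WT 1 to 3. The sum was higher in each GLUT1EC-/- library while its make-up differed. Alpl gave 5.02%, 2.31% and 6.80% of the sum in GLUT1EC-/- 1 to 3, against 25.5%, 24.0% and 21.0% in WT 1 to 3. Ace gave 30.8%, 26.1% and 32.7% in GLUT1EC-/- 1 to 3, against 16.6%, 19.0% and 16.6% in WT 1 to 3. The 6 peptidases summed to 2009, 2766 and 1785 CPM in GLUT1EC-/- and 1259, 1341 and 1411 CPM in WT. The phosphatase and nucleotidases (Alpl, Nt5e and Entpd1) summed to 465, 484 and 497 CPM in GLUT1EC-/- and 797, 779 and 729 CPM in WT.

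The spread within a group also differed between members. In GLUT1EC-/- the coefficient of variation over libraries was 36.8% for Dpp4, 34.5% for Ece1 and 34.3% for Alpl, against 13.5%, 8.68% and 8.01% for the same genes in WT. For Ace it was 6.83% in GLUT1EC-/- and 8.93% in WT. GLUT1EC-/- 2 and GLUT1EC-/- 3 were at opposite ends of the GLUT1EC-/- values for Alpl, Ace, Ece1, Dpp4, Ggt5 and Enpep.

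All 10 members passed the filter on low counts. The test across genes was edgeR's quasi-likelihood test over 14838 genes, with Benjamini-Hochberg adjusted p under 0.05, and it called 1.31% of them, 0.863% as higher and 0.445% as lower in GLUT1EC-/-. Of the members it called 1 higher, Ace, and 1 lower, Alpl, the pair whose movement was the reason for the choice of genes. Groups of CPM values did not overlap for 7 members, 3 higher (Ace, Nt5e and Entpd1) and 4 lower (Alpl, Enpep, Dpp4 and Mme) in GLUT1EC-/-. Over all tested genes the groups did not overlap for 22.9%, 11.7% higher and 11.2% lower. Nothing is read from the members' counts, since the choice used this contrast. The median log2 fold change of the 10 members was 0.09, beside 0.01 for all tested genes. The sign of that median rested on single libraries, since it was -0.10 without GLUT1EC-/- 3, -0.01 without WT 1 and 0.18 without GLUT1EC-/- 2.

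**Figure D3:**
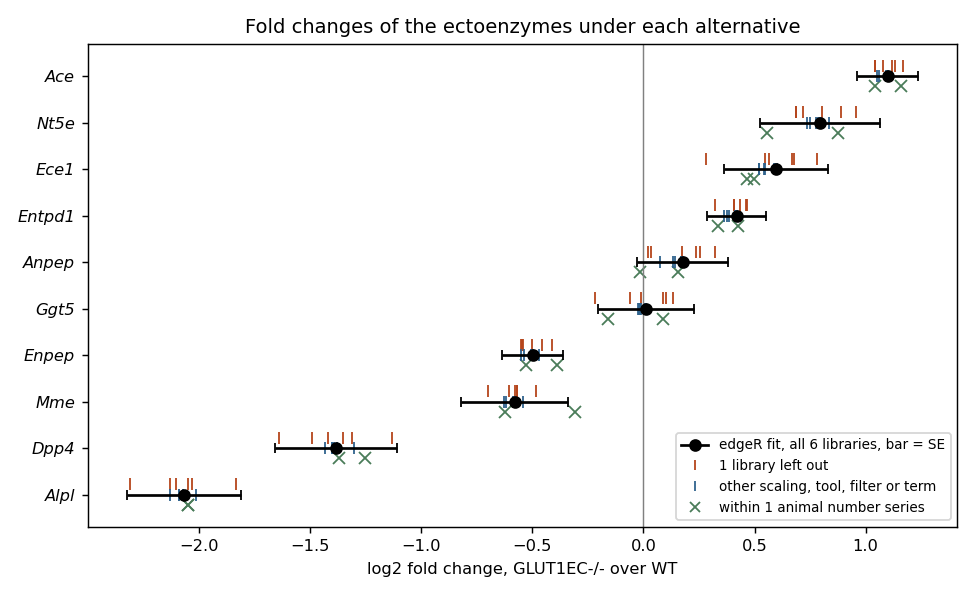
Log2 fold change of each ectoenzyme, GLUT1EC-/- over WT, with its SE as the bar and the values under 16 alternatives as ticks and crosses. Alpl stays between -2.31 and -1.83 and Ace between 1.04 and 1.17, while the values of Ggt5 and Anpep fall on both sides of 0.

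Genes with the pattern most like those of Alpl and Ace were found by Pearson's r of log2 (CPM + 0.5) over the 6 libraries, among other genes whose mean reached 10 CPM. These r values mostly follow the difference between the groups and are descriptions. For Alpl the 5 genes were Gkn3, Psmb10, Surf2, Alox12 and Pak1, with r of 0.997, 0.996, 0.995, 0.995 and 0.992. Alox12, a lipoxygenase gene, was at 17.4, 8.78 and 22.1 CPM in GLUT1EC-/- 1 to 3, against 83.2, 64.6 and 68.5 CPM in WT 1 to 3. For Ace they were Aldh1a1, Scap, Tmem43, Reep1 and Rasl10b, with r of 0.996, 0.996, 0.995, 0.993 and 0.992. Aldh1a1, a retinaldehyde dehydrogenase gene, was at 42.5, 45.4 and 43.9 CPM in GLUT1EC-/- 1 to 3, against 20.4, 25.4 and 21.5 CPM in WT 1 to 3. Scap, the sterol sensor partner of SREBP, followed the same order of libraries over a far smaller range, 102 ± 0.163 CPM in GLUT1EC-/- and 95.5 ± 0.451 CPM in WT (SD, n = 3 each). Gkn3, known from brain arterial endothelium, was at 13.9, 4.0 and 24.2 CPM in GLUT1EC-/- 1 to 3, against 189, 186 and 134 CPM in WT 1 to 3.

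The genes around these enzymes, their substrates, receptors and anchors, were taken as 8 lists of 182 genes in the files besides the members. By edgeR's quasi-likelihood test 3 of the 154 tested rose, none fell and 151 did not pass, beside 0.863% called higher and 0.445% called lower of all tested genes. At an unadjusted p under 0.05, 18 were higher and 5 lower, and DESeq2 called 11 higher and 3 lower. Their median log2 fold change was 0.03, and 0.01 over all tested genes. The 3 calls depended on single libraries: without WT 1, WT 2 or WT 3 there were 0, without GLUT1EC-/- 1 there was 1, and without GLUT1EC-/- 2 and GLUT1EC-/- 3 there were 13 and 6.

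St14, the membrane serine peptidase matriptase, was the 1 call among 27 tested genes of the surface peptidase list. It was at 34.96, 54.4 and 34.2 CPM in GLUT1EC-/- 1 to 3, against 12.2, 14.1 and 13.9 CPM in WT 1 to 3, higher in 3 of 3 libraries (edgeR adjusted p = 0.0172 for a log2 fold change of 1.62, SE 0.21). With 1 library left out the edgeR adjusted p ran from 6.31e-04 to 0.145, and with the number series as a term it was 0.0833. This list also holds surface proteins that are not peptidases, Thbd, Plaur and Procr among them. Its most abundant genes did not pass. Adam15, a disintegrin metalloprotease gene, was at 738 ± 108 CPM in GLUT1EC-/- and 724 ± 31.6 CPM in WT. Thbd, thrombomodulin, was at 452 ± 55.0 CPM in GLUT1EC-/- and 603 ± 42.8 CPM in WT (edgeR adjusted p = 0.233 for a log2 fold change of -0.42). Cpd, a carboxypeptidase gene, had a log2 fold change of -0.05.

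Bst1 (CD157), a GPI-anchored enzyme that cleaves NAD, was the 1 call among 34 tested purine genes. It was at 25.9, 19.5 and 32.8 CPM in GLUT1EC-/- 1 to 3, against 6.22, 6.02 and 11.8 CPM in WT 1 to 3 (edgeR adjusted p = 0.0468 for a log2 fold change of 1.70, SE 0.31). With 1 library left out the edgeR adjusted p ran from 0.00992 to 0.262, and with the number series as a term it was 0.122. Enpp2, autotaxin, the most abundant purine-list gene, was at 1740 ± 572 CPM in GLUT1EC-/- and 1837 ± 248 CPM in WT. The choroid plexus also makes autotaxin, and the summed level of 8 choroid plexus markers, Enpp2 among them, was 4070 to 7697 CPM in GLUT1EC-/- and 5198 to 8489 CPM in WT. Enpp5 and Enpp4, of the same family, had log2 fold changes of -0.16 and -0.11. Adora2a, a receptor gene for adenosine, the product of Nt5e, was at 12.4 ± 1.39 CPM in GLUT1EC-/- and 15.2 ± 1.03 CPM in WT (edgeR adjusted p = 0.456).

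Cdh13 (T-cadherin), a cadherin held by a GPI anchor, was the 1 call among 16 genes listed as GPI-anchored surface proteins, not all of which need carry the anchor. It was at 148, 126 and 174 CPM in GLUT1EC-/- 1 to 3, against 67.8, 71.8 and 44.7 CPM in WT 1 to 3 (edgeR adjusted p = 0.0327 for a log2 fold change of 1.28, SE 0.21). With 1 library left out the edgeR adjusted p ran from 0.00553 to 0.198, and with the number series as a term it was 0.0934. Of the 31 genes that build or remodel GPI anchors 0 passed (0 higher and 1 lower at an unadjusted p under 0.05, 0 higher and 1 lower by DESeq2), and their median log2 fold change was -0.01, or -0.08 to 0.09 with 1 library left out. Pigt, Pigq and Pigk, the most abundant of them, had log2 fold changes of 0.26, 0.01 and 0.07. Among GPI-anchored surface proteins Ly6c1 was at 2734 ± 793 CPM in GLUT1EC-/- and 1873 ± 457 CPM in WT, Ly6e at 1785 ± 546 CPM in GLUT1EC-/- and 2478 ± 665 CPM in WT, and Ly6a at 1201 ± 34.0 CPM in GLUT1EC-/- and 898 ± 189 CPM in WT, and none of the 3 passed. GPI-anchored products thus lay on both sides of 0, with Alpl at -2.07 and Bst1 at 1.70 on the log2 scale.

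None of the 5 tested endothelin genes passed (1 higher and 2 lower at an unadjusted p under 0.05, 0 higher and 1 lower by DESeq2). Edn1, the endothelin precursor that Ece1 cleaves, was at 289, 408 and 335 CPM in GLUT1EC-/- 1 to 3, against 481, 418 and 479 CPM in WT 1 to 3 (edgeR adjusted p = 0.282 for a log2 fold change of -0.42). Edn3, another endothelin precursor, was at 85.7, 86.6 and 156 CPM in GLUT1EC-/- 1 to 3, against 175, 212 and 191 CPM in WT 1 to 3 (edgeR adjusted p = 0.170 for a log2 fold change of -0.82). The receptor gene Ednra was at 28.8 ± 6.11 CPM in GLUT1EC-/- and 24.0 ± 3.59 CPM in WT (edgeR adjusted p = 0.577). Ednrb, another receptor gene, was at 28.1 ± 16.7 CPM in GLUT1EC-/- and 12.9 ± 4.43 CPM in WT, with groups that overlapped. Ednrb was the 1 gene higher at an unadjusted p under 0.05 (edgeR adjusted p = 0.28 for a log2 fold change of 1.12). By value both precursors were therefore lower in GLUT1EC-/-, where the mean of the converting enzyme was higher.

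None of the 17 tested angiotensin and kinin genes passed (2 higher and 0 lower at an unadjusted p under 0.05, and the same counts by DESeq2). Prcp, a carboxypeptidase that cuts angiotensins and kinins, was at 116 ± 26.2 CPM in GLUT1EC-/- and 105 ± 13.1 CPM in WT. The precursor Agt was at 1.24 ± 0.657 CPM in GLUT1EC-/- and 1.16 ± 0.199 CPM in WT, and Agtr1a, the angiotensin II receptor gene, at 0.512 ± 0.0631 CPM in GLUT1EC-/- and 0.663 ± 0.195 CPM in WT. Atp6ap2, the prorenin receptor gene, and Rnpep, aminopeptidase B, had log2 fold changes of 0.16 and -0.20.

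None of the 9 tested phosphate and vitamin B6 genes passed (1 higher and 0 lower at an unadjusted p under 0.05, 0 by DESeq2), and their median log2 fold change was 0.22. That median was 0.01 without GLUT1EC-/- 2, 0.08 without GLUT1EC-/- 3 and 0.29 without WT 1. Pdxk, pyridoxal kinase, which traps the vitamin once Alpl has dephosphorylated it, was at 204, 411 and 224 CPM in GLUT1EC-/- 1 to 3, against 223, 233 and 215 CPM in WT 1 to 3 (edgeR adjusted p = 0.605 for a log2 fold change of 0.32). GLUT1EC-/- 2 alone was high. The phosphate carrier genes Slc20a1 and Xpr1 had log2 fold changes of 0.22 and -0.10. Of the other alkaline phosphatase genes, Alpi and Alppl2 were at 0 counts in all 6 libraries, and Akp3 was at 0.0261, 0 and 0.108 CPM in GLUT1EC-/- 1 to 3, against 0, 0 and 0.0739 CPM in WT 1 to 3. Of the 22 tested glutathione and leukotriene genes 0 passed (3 higher and 0 lower at an unadjusted p under 0.05, 1 higher and 0 lower by DESeq2). Gclc, the catalytic subunit that starts glutathione synthesis, was at 93.7 ± 33.7 CPM in GLUT1EC-/- and 66.8 ± 2.50 CPM in WT (edgeR adjusted p = 0.393 for a log2 fold change of 0.49). Lta4h, leukotriene A4 hydrolase, and Lap3, leucine aminopeptidase, had log2 fold changes of -0.05 and 0.12.

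**Figure D4:**
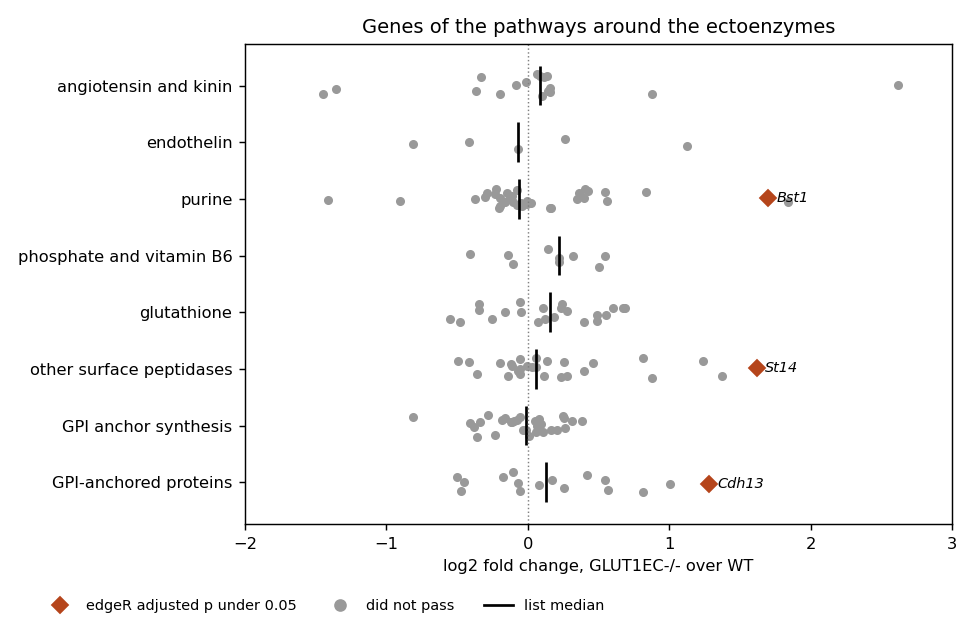
Log2 fold change, GLUT1EC-/- over WT, of the tested genes of 8 lists around the ectoenzymes, 1 point per gene, with list medians as lines. Bst1, St14 and Cdh13, at 1.28 to 1.70, are the 3 calls, and the medians lie between -0.07 and 0.22.

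Ace is also made by patrolling monocytes and macrophages. Of 10 blood monocyte markers 4 fell and 0 rose (1 higher and 6 lower at an unadjusted p under 0.05, and the same by DESeq2), with a median log2 fold change of -2.69, and none was at 0 in every library of a group. Their summed level was 273 to 342 CPM in GLUT1EC-/- and 274 to 336 CPM in WT, and most of it was Pglyrp1, at 248, 333 and 263 CPM in GLUT1EC-/- 1 to 3, against 179, 169 and 212 CPM in WT 1 to 3 (edgeR adjusted p = 0.144). The 9 other markers summed to 25.0, 8.52 and 13.4 CPM in GLUT1EC-/- 1 to 3, against 98.4, 167 and 62.1 CPM in WT 1 to 3, so that this sum was lower in every GLUT1EC-/- library than in any WT library. The part of monocytes in the Ace difference was not tested. The 9 markers of resident macrophages and monocytes had a summed level of 219 to 320 CPM in GLUT1EC-/- and 176 to 210 CPM in WT, with 0 called (2 higher and 1 lower at an unadjusted p under 0.05, and the same by DESeq2), and their part in the Ace difference was not tested.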

How the data were processed

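RNA was sequenced from 6 libraries (stranded TruSeq mRNA kit, NovaSeq, single-end reads of 100 bp, per the labels' protocols). The submitters' processing notes name STAR, featureCounts and the GRCm38 build. Versions, annotation, strand setting and filters are not given in the sources used here. Raw counts per gene symbol were deposited by the authors for each library.

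Groups follow the genotype label. The labels do not say which animals shared a litter, so no pairing was modelled, and p-values measure the spread between 3 libraries a group. The main test was edgeR 4.0.16 (R 4.3.3) with quasi-likelihood F tests, TMM scaling, filterByExpr (minimum count 10, minimum total 15), robust dispersions and genotype as the only term. P-values were adjusted over all 14838 tested genes. The SE was derived from the log2 fold change and its F value. PCR duplicates carry no molecular identifiers, so counting error is a lower bound on the error. The alternatives were other scalings, DESeq2 1.42.0, limma-voom (limma 3.58.1), other filters, the animal number series as a term, values within each series and each library left out. The scripts were tested on simulated data. There the edgeR test recovered 9.09% of 1.5-fold, 52.3% of 2-fold and 96.9% of 4-fold changes, and 1.92% of its calls were false. Changes of 1.5-fold were thus mostly missed in the simulation. Of the DESeq2 calls in the same simulation 11.7% were false. The simulation gave every gene the dispersion of the trend over expression level, and no library stood apart as GLUT1EC-/- 2 did. Its rates therefore need not hold for these libraries.

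The members, the lists and the markers were chosen with earlier results of these data known. Named genes are the members, Slc2a1, up to 6 called and the 3 most abundant genes of each list and the 5 genes most like Alpl and Ace. The neighbours of Alpl and Ece1, Adora2a, Agt, Agtr1a, Ednrb, Alpi, Alppl2, Akp3, Pglyrp1 and Apod were added after their values were seen. Symbols were placed with GENCODE M21, and promoter windows come from RefSeq on GRCm38.p6.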

Additional observations from a re-analysis of the deposited data

How the results depend on the processing

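Alpl and Ace kept their direction, and moved by less than 1 SD between libraries, under all 16 alternatives; with 1 library left out, Alpl ran from -2.31 to -1.83 and Ace from 1.04 to 1.17 on the log2 scale. Over the 10 members, 151 of 160 alternative values kept their sign. The exceptions were 8 of 16 values of Ggt5 and 1 of 16 of Anpep, which was -0.01 within the 500s. The value of Mme within the 200s (-0.31) was the 1 that moved by more than 1 SD.

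The number of genes called depended on the setting. It was 194 in the edgeR fit, 879 by DESeq2 (502 higher, 377 lower) and 14 with the number series as a term. With 1 library left out it ran from 0 (without WT 1, where 1248 genes had an unadjusted p under 0.05) to 862 (without GLUT1EC-/- 2). Of the genes around the ectoenzymes 3 were called, 14 by DESeq2, 1 with library size alone, 0 with the number series as a term (21 at an unadjusted p under 0.05), and 0 to 13 with 1 library left out. The causes were not tested. St14, Bst1 and Cdh13 kept their direction under 14 of 14 alternatives each, and passed under 10, 5 and 8 of them. No paired analysis was possible because the labels give the animals no shared numbers. Members under 200 counts (Mme and Nt5e) are limited most by depth.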

Other observations

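Some relatives and pathway partners of the members were picked after their values had been seen, and none passed edgeR's quasi-likelihood test. Ece2, a relative of Ece1, was at 3.28 ± 0.813 CPM in GLUT1EC-/- and 3.46 ± 0.262 CPM in WT (edgeR adjusted p = 0.918). Ggt1, a relative of Ggt5, was at 1.45 ± 0.0405 CPM in GLUT1EC-/- and 1.38 ± 0.541 CPM in WT (edgeR adjusted p = 0.941). Enpp1, which makes the pyrophosphate that Alpl breaks down, was at 6.12 ± 3.77 CPM in GLUT1EC-/- and 1.71 ± 0.449 CPM in WT, with groups that did not overlap (edgeR adjusted p = 0.121 for a log2 fold change of 1.84). Abcc1, an exporter of leukotriene C4, the substrate of Ggt5, was at 37.4 ± 1.93 CPM in GLUT1EC-/- and 24.7 ± 2.06 CPM in WT (edgeR adjusted p = 0.0758 for a log2 fold change of 0.60).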
